A study of Mus musculus with 12 samples.

Results

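Macrophages that had entered neuroblastoma spheres were compared with macrophages that had stayed outside the spheres of the same cultures, both collected at 48 h. The comparison holds 6 of the 12 Affymetrix mouse arrays of the series, 3 of cells inside spheres and 3 of cells outside, chosen by their titles, and the other 6 arrays are the same design at 24 h. Inside and outside cells alike were bone marrow-derived macrophages of C57BL/6 mice with no treatment label. They had been added to spheres that cells of TT9423, a mouse neuroblastoma line and the only tumour line used, had formed on agar. The in-sphere samples are labelled CD11b-positive, and by the protocol text, which stands on all samples, spheres were taken apart with enzymes and the cells passed over CD11b magnetic columns. How the outside cells were handled at these steps is not given. The protocol describes a co-culture of 24 h on every sample, so the time of 48 h rests on the titles and the time label. Each replicate was an independent experiment with macrophages pooled over several wells. Tumour cells without macrophages were not analysed here.

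Macrophages that enter a tumour are known to meet low oxygen, tumour-derived growth factors, dying cells and a stiff matrix, and such tumour-associated macrophages can carry both inflammatory and repair programs. Low oxygen stabilises the HIF transcription factors, which raise glycolytic enzymes and angiogenic factors through a core DNA element. Macrophages are also rich in lysosomes, whose genes are driven by the MiT/TFE factors, and they handle large amounts of lipid and iron taken up from other cells.

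Values are log2 RMA expression of 1 probe set per gene, and a difference is the in-sphere mean minus the outside mean, so that 1 on this scale is a 2-fold difference. Differences are given ± the standard error of limma's moderated fit over all 12 arrays. The adjusted p is that fit's p with Benjamini-Hochberg adjustment over all 12488 genes tested, and a gene is called at an adjusted p under 0.05. Values of single arrays are given in the order of replicates 1, 2 and 3. The filter level is 2.77, the 40th percentile of all values, and a gene was tested if it lay above it on at least 3 of the 12 arrays. A difference from a group below it on all arrays is given as a bound. Other probe sets of a gene are quoted where they exceed the filter level on any array of 48 h, and the mean over all its probe sets where that moves the difference by over 1.5 times. A level cannot be compared between genes on this scale, and in bulk samples fewer cells of a type and less RNA per cell cannot be told apart.

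In-sphere replicate 3 stood apart from the other arrays. Its mean log2 value over all probe sets was 4.06, against 4.22 on each of the other 5 arrays of 48 h. It read lower than the mean of in-sphere replicates 1 and 2 for 82.6% of genes, by a median of 0.24, and most for genes of middling level. Genes between 4 and 6 read lower by a median of 0.48 on this array, and genes of 10 and above by 0.02. Counts of called list members are given without this array as well where it changes them, as are single genes whose call it ends or whose difference it moves by over 1.5 times. Correlations of log2 values over genes ran from 0.988 to 0.993 within the in-sphere group, from 0.99 to 0.993 within the outside group and from 0.935 to 0.95 between the groups. The 3′ minus 5′ signal of the actin control probes was 0.405 ± 0.0114 in spheres and 0.386 ± 0.0134 outside (SD, n = 3 each, exact two-sided permutation p = 0.2). For the GAPDH control probes it was 0.124 ± 0.0196 and 0.0794 ± 0.0235 (SD, n = 3 each, exact permutation p = 0.1, which is the lowest p this design can give), with every in-sphere array above every outside array. The part of RNA quality in the results was not tested.

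**Figure D1:**
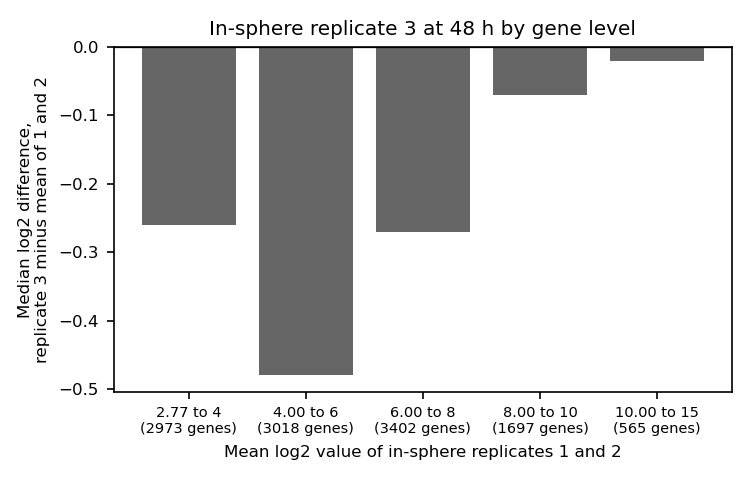
Median log2 difference between in-sphere replicate 3 and the mean of in-sphere replicates 1 and 2 at 48 h, by the level of the gene in replicates 1 and 2. Each bar is 1 level range with its number of genes; the bars run from -0.26 in the lowest range through -0.48 to -0.02 in the highest.

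Of the 12488 genes tested, 37.5% were called different between the groups, 15.2% higher in spheres and 22.3% lower. Counts of called list members further on are to be read against these shares. The arrays of the groups did not overlap for 51.6% of the genes. Without in-sphere replicate 3 the called shares were 16.4% higher and 17.0% lower, with 3871 of the 4685 calls kept. Of the 814 calls lost, 684 were of genes lower in spheres. Quantile normalisation of the probe sets moved the higher share of all calls from 40.6% to 47.6%. The median difference over all genes was -0.101, or -0.02 without in-sphere replicate 3, so small differences below 0 are read with care throughout. Most differences were small, since 66.0% of genes differed by under 0.5, while 252 genes were called higher and 131 lower by at least 2.

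**Figure D2:**
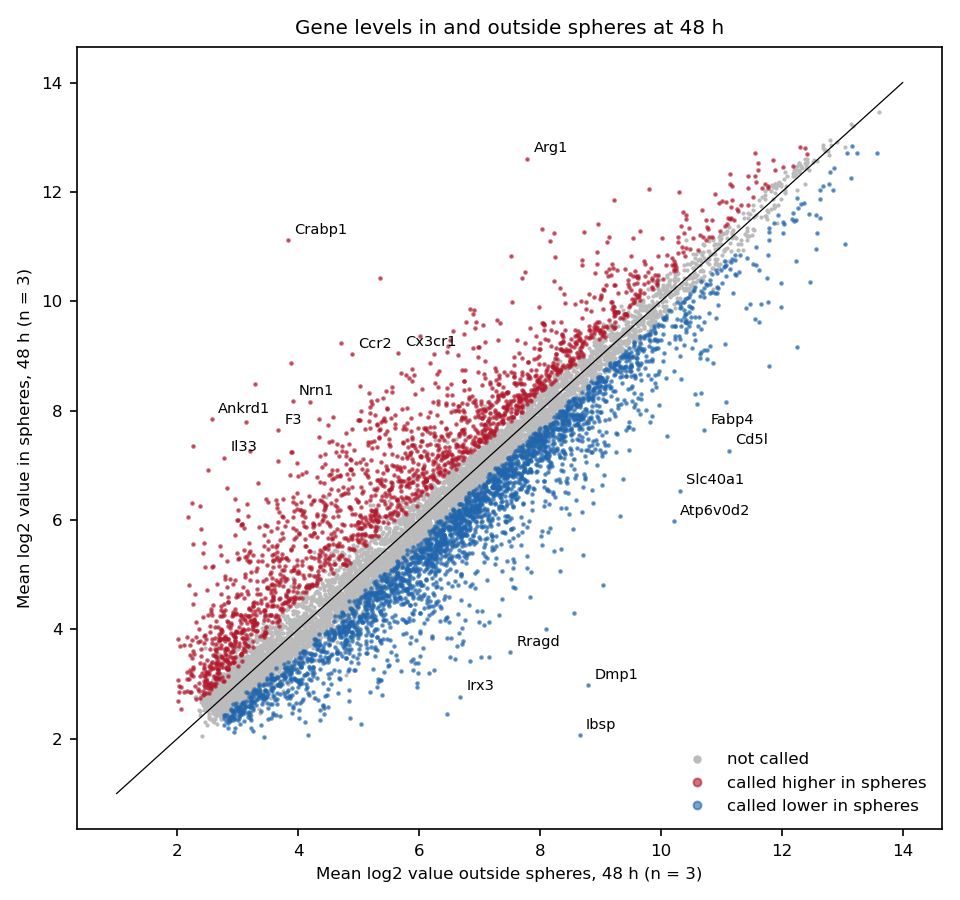
Mean log2 value of each tested gene outside spheres (horizontal axis) and in spheres (vertical axis) at 48 h, over 3 arrays each; the line marks equal values. Red points are the 1904 genes called higher in spheres, blue points the 2781 called lower and grey points the rest; named genes lie far from the line, such as Ankrd1 above it and Atp6v0d2 below it.

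The labels were first checked against marker genes. Both groups held most of the macrophage markers, 21 of 22 on the array. The exception was Cd163, a scavenger receptor gene for haemoglobin, which was below the filter level on all arrays of both groups. The CSF1 receptor gene Csf1r read 9.33, 9.45 and 9.62 in spheres and 9.97, 9.54 and 9.85 outside. Itgam, which encodes the CD11b antigen used for selection, read 9.11, 8.75 and 8.87 in spheres and 8.06, 8.76 and 8.20 outside. These arrays overlapped, and the difference (0.56 ± 0.25, adjusted p = 0.101) was not called, although it was without outside replicate 2 (0.77, adjusted p = 0.0435). Of 21 macrophage identity genes tested, 2 were called higher and 6 lower (1 and 7 without in-sphere replicate 3), with a median difference of -0.20. The shares over all genes tested were 15.2% higher and 22.3% lower. The lipopolysaccharide co-receptor Cd14 was higher (11.93, 11.90 and 12.09 in spheres and 10.82, 10.87 and 10.97 outside, difference 1.09 ± 0.13, adjusted p = 5.11e-05). The myeloid transcription factor Cebpa was lower (5.88, 5.93 and 5.32 in spheres and 7.99, 8.16 and 7.91 outside, difference -2.31 ± 0.19, adjusted p = 4.02e-06), as were Spi1, which encodes PU.1 (-0.66 ± 0.15, adjusted p = 0.00419), and the endosomal glycoprotein Cd68 (-0.75 ± 0.13, adjusted p = 0.000691). The high-affinity IgG receptor Fcgr1, the other gene called higher, lost its call when in-sphere replicate 2 or 3, or outside replicate 1 or 2, was left out (adjusted p of 0.0912, 0.0858, 0.079 and 0.131), which leaves 1 gene called higher without in-sphere replicate 2, in-sphere replicate 3 or outside replicate 1. Adgre1, which encodes a surface antigen of mouse macrophages, read 10.84, 10.92 and 11.06 in spheres and 11.28, 11.17 and 11.39 outside with an adjusted p of 0.0536, and 0.0453 with the replicate number as a block. The summed linear level of the list ran from 44300 to 47500 in spheres and from 49400 to 53200 outside.

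Most granulocyte genes were lower in spheres, and those of the primary granule were not. Of 16 granulocyte genes, 12 were called lower and 1 higher, with a median difference of -1.59, or -1.52 without in-sphere replicate 3. The secondary granule protein gene Ltf read 8.67, 9.98 and 8.87 in spheres and 12.04, 12.59 and 12.17 outside (-3.09 ± 0.32, adjusted p = 2e-05). Camp, the cathelicidin gene, read 8.57, 10.01 and 7.84 in spheres and 11.41, 12.33 and 11.64 outside (-2.99 ± 0.43, adjusted p = 0.000215). The receptor for the granulocyte growth factor, Csf3r, read 5.85, 6.37 and 6.24 in spheres and 8.31, 8.87 and 8.90 outside (-2.54 ± 0.3, adjusted p = 5.29e-05). For all 3 genes every in-sphere array lay below every outside array. The primary granules form early, in immature myeloid cells. Of their genes in the list the protease gene Prtn3 read 7.23, 7.77 and 7.49 in spheres and 4.93, 5.83 and 5.27 outside and was higher (2.15 ± 0.32, adjusted p = 0.000253). The protease genes Elane and Ctsg read 5.21, 5.92 and 5.21 in spheres and 4.60, 4.98 and 4.36 outside (0.80 ± 0.39, adjusted p = 0.128) and 5.93, 6.83 and 6.07 in spheres and 4.77, 5.76 and 5.19 outside (1.04 ± 0.39, adjusted p = 0.0522), neither called, although every in-sphere array lay above every outside array. With the replicate block both were called higher (adjusted p = 0.0234 for Elane and 0.00102 for Ctsg). The peroxidase gene Mpo read 6.09, 7.13 and 6.49 in spheres and 5.42, 6.20 and 6.22 outside, with groups that overlapped (0.62 ± 0.46, adjusted p = 0.31). The count called higher was thus 3 with the block, and 2 without outside replicate 2. No member of the list was below the filter level on all arrays of either group, and its summed level ran from 16000 to 24800 in spheres and from 44100 to 60300 outside. The part of such cells in the other results was not tested.

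Stromal genes divided. Of 18 fibroblast and stromal genes, 10 were called higher in spheres and 4 lower (10 and 3 without in-sphere replicate 3), with a median difference of 1.35. The fibrillar collagen gene Col3a1 read 10.80, 10.82 and 10.83 in spheres and 6.89, 7.52 and 8.18 outside (3.28 ± 0.31, adjusted p = 9.75e-06). Decorin, encoded by Dcn, read 8.84, 8.79 and 8.43 in spheres and 4.68, 5.75 and 6.68 outside (2.98 ± 0.55, adjusted p = 0.00108). The collagen cross-linking enzyme gene Loxl1 read 7.14, 7.56 and 7.59 in spheres and 3.69, 4.49 and 5.34 outside (2.92 ± 0.36, adjusted p = 6.35e-05, or 1.58 for the mean of its probe sets). Pdpn, which encodes podoplanin, read 10.20, 9.49 and 9.84 in spheres and 7.31, 6.61 and 6.80 outside (2.94 ± 0.44, adjusted p = 0.000281). Every in-sphere array lay above every outside array, and for Col3a1, Dcn and Loxl1 the outside arrays were more spread than the in-sphere arrays. The osteoblast cadherin gene Cdh11 went the other way, with 2.50, 2.63 and 2.25 in spheres, all below the filter level, and 5.79, 6.68 and 6.95 outside, a difference of at least 3.70 against that level (adjusted p = 1.46e-06). The second probe set of Cdh11 gave a difference of -0.46. Col1a1, a chain gene of the main collagen of bone and fibroblasts, was lower (5.05, 5.02 and 5.07 in spheres and 6.10, 6.51 and 6.21 outside, -1.23 ± 0.21, adjusted p = 0.000619), as was the contractile actin gene Acta2 (-0.83 ± 0.17, adjusted p = 0.00206, or -0.42 for the mean of its probe sets). Col1a2, the gene of that collagen's other chain, went the opposite way, with 4.02, 4.39 and 4.38 in spheres and 2.41, 3.03 and 2.90 outside. Of the list's 19 genes on the array, 3 were below the filter level on all arrays in spheres and 2 on all arrays outside. Its summed level ran from 4850 to 5270 in spheres and from 1590 to 2450 outside.

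Neural genes were called higher or not at all. Of 26 neuroblastoma and neural genes on the array, 12 were below the filter level on all arrays in spheres and 12 on all arrays outside, and 15 could be tested. The noradrenergic genes Th and Dbh, which encode enzymes of catecholamine synthesis, read 2.81, 2.74 and 2.62 in spheres and 2.82, 2.77 and 3.04 outside for Th and 3.33, 3.25 and 2.89 in spheres and 3.73, 3.03 and 3.34 outside for Dbh, with no call. Chga, the chromogranin A gene, was below the filter level on every array of both groups. Of the 15 tested genes 4 were called higher and 0 lower, with a median difference of 0.02. The growth cone protein gene Gap43 read 6.72, 6.61 and 7.42 in spheres and 2.27, 2.84 and 2.41 outside (4.41 ± 0.3, adjusted p = 1.38e-06). Map1b, a microtubule-associated protein gene, read 6.04, 5.79 and 6.39 in spheres and 3.07, 3.0 and 3.43 outside (2.90 ± 0.31, adjusted p = 2.4e-05), although its other probe sets gave differences from -0.09 to 0.87. The adhesion molecule gene Ncam1 read 6.20, 6.12 and 5.92 in spheres and 4.45, 4.66 and 4.20 outside (1.64 ± 0.2, adjusted p = 5.22e-05, or 0.76 for the mean of its probe sets). Elavl4, a neuronal RNA-binding protein gene, read 3.08, 3.01 and 3.0 in spheres and was below the filter level on all outside arrays, at least 0.26 lower (adjusted p = 0.000446). The list's summed level ran from 378 to 474 in spheres and from 181 to 189 outside. The part of TT9423 RNA in these, the stromal and the later results was not tested.

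Of 8 endothelial genes 2 were called lower, led by the von Willebrand factor gene Vwf (3.88, 3.36 and 3.11 in spheres and 5.31, 5.77 and 5.83 outside, -2.19 ± 0.29, adjusted p = 0.00012). That count was 1 when in-sphere replicate 2, or outside replicate 1 or 3, was left out, and 1 endothelial gene was called higher without in-sphere replicate 3. Of 12 endothelial genes on the array, 4 were below the filter level on all arrays of each group, and the summed level ran from 118 to 159 in spheres and from 187 to 197 outside. Of 6 dendritic cell genes 1 was higher and 1 lower. These were Fscn1, an actin-bundling protein gene (9.39, 9.73 and 9.67 in spheres and 6.58, 7.48 and 7.98 outside, 2.25 ± 0.3, adjusted p = 0.000114, other probe sets from -0.15 to 0.14), and Itgax, which encodes CD11c (3.34, 3.75 and 3.07 in spheres and 4.52, 4.70 and 4.03 outside, -1.03 ± 0.23, adjusted p = 0.00435). The dendritic list's sum, most of it from the probe set used for Fscn1, ran from 733 to 910 in spheres and from 161 to 319 outside. Of its 8 genes 2 were below the filter level throughout each group. Of 6 lymphocyte genes Cd79b, a B-cell receptor chain gene, was called higher (6.57, 6.83 and 6.53 in spheres and 5.13, 6.14 and 5.87 outside, 0.93 ± 0.23, adjusted p = 0.00804). The lymphocyte sum ran from 143 to 175 in spheres and from 95 to 132 outside, and 5 of 10 genes in spheres and 6 outside were below the filter level on all arrays. Over all genes tested 15.2% were called higher and 22.3% lower. With so few genes, the endothelial, dendritic and lymphocyte counts are not read as results about cell types.

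Platelet, red cell and mast cell genes gave a mixed picture. Of 10 erythroid and megakaryocyte genes, 2 were higher and 5 lower, with a median difference of -1.13, or -0.71 without in-sphere replicate 3. The platelet chemokine genes Pf4 and Ppbp, which macrophages also express, were higher (Pf4 12.70, 12.70 and 12.75 in spheres and 11.39, 11.62 and 11.65 outside, 1.16 ± 0.14, adjusted p = 4.48e-05). Platelet receptor genes were lower, including Clec1b (2.55, 3.20 and 3.07 in spheres and 4.57, 6.75 and 6.59 outside, -3.03 ± 0.47, adjusted p = 0.00035) and the integrin gene Itga2b (4.05, 4.20 and 3.52 in spheres and 5.0, 6.07 and 6.14 outside, -1.82 ± 0.31, adjusted p = 0.000615). Haemoglobin alpha, Hba-a1, read 4.87, 5.47 and 3.07 in spheres and 6.16, 6.69 and 6.01 outside. Its difference was -1.82 ± 0.47, adjusted p = 0.00943, or -1.11 without in-sphere replicate 3. The summed level of the list, most of it from Pf4, ran from 8320 to 8660 in spheres and from 3210 to 4390 outside, with 2 and 3 of 13 genes below the filter level on all arrays. Of 7 mast cell and basophil genes 2 were called lower, against 22.3% of all genes tested. They were the histamine synthesis gene Hdc and the stem cell factor receptor gene Kit. Hdc read 4.11, 5.63 and 4.62 in spheres and 5.70, 7.14 and 6.81 outside (-1.76 ± 0.48, adjusted p = 0.012), and without outside replicate 2 the difference was -1.47 with an adjusted p of 0.0539. Kit read 2.43, 2.53 and 2.07 in spheres, all below the filter level, and 2.99, 2.87 and 2.72 outside, with 2 arrays above it. Both groups of Kit thus lay below or near that level. The count called lower was 4 without outside replicate 1, 1 without outside replicate 2 and 4 with the replicate block, and the summed level ran from 83 to 120 in spheres and from 122 to 285 outside, with 5 and 3 of 11 genes below the filter level on all arrays.

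**Figure D3:**
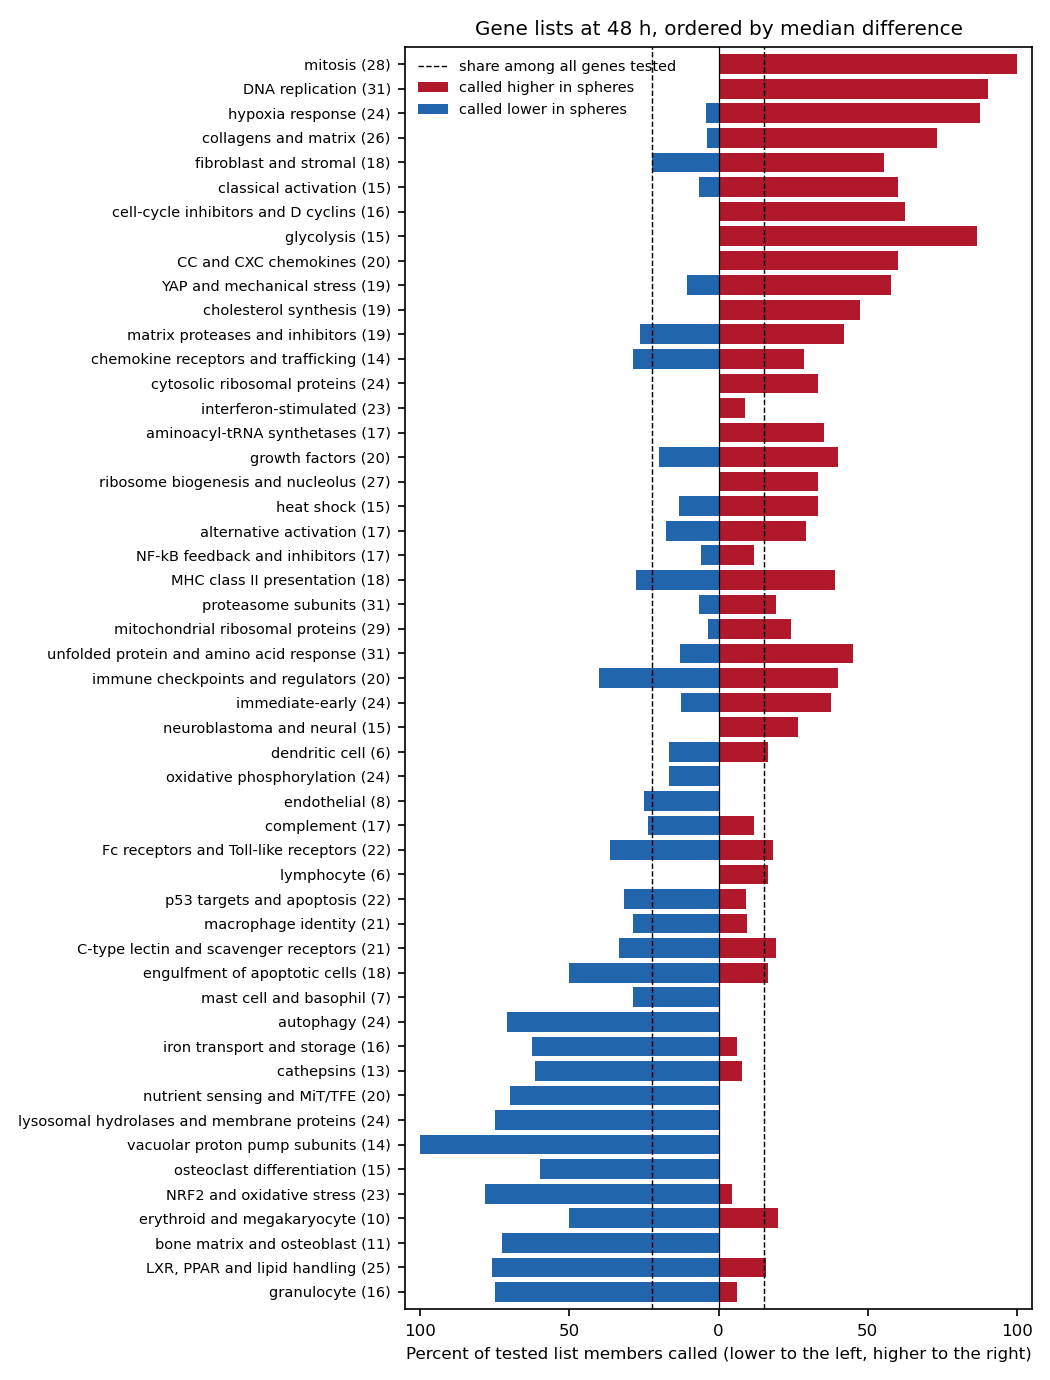
Percent of the tested members of each gene list called higher (red, to the right) or lower (blue, to the left) in spheres at 48 h, with the number tested in brackets, ordered by the list's median difference. Dashed lines mark the shares over all genes tested, 15.2% higher and 22.3% lower; mitosis lies at one end with 28 of 28 members higher and the vacuolar proton pump is the list with 14 of 14 members lower.

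Cell-cycle genes were higher in spheres. All 28 mitosis genes tested were called higher, with a median difference of 2.53, or 2.64 without in-sphere replicate 3. For each of them every in-sphere array lay above every outside array. Over all genes tested the groups did not overlap, in either direction, for 51.6%. The proliferation antigen gene Mki67 read 9.79, 9.36 and 9.38 in spheres and 6.83, 7.40 and 6.53 outside (2.59 ± 0.23, adjusted p = 5.89e-06). Bub1, a kinase gene of the spindle checkpoint, read 7.77, 7.45 and 7.32 in spheres and 4.16, 5.04 and 3.85 outside (3.16 ± 0.3, adjusted p = 1.18e-05, with 0.41 on its other probe set). For both genes the nearest arrays of the groups lay further apart than any arrays within a group. The mitotic cyclin gene Ccnb2 read 8.74, 8.33 and 8.22 in spheres and 5.32, 6.19 and 5.14 outside (2.88 ± 0.33, adjusted p = 3.55e-05). Ube2c, which encodes an enzyme that supplies ubiquitin to the anaphase-promoting complex, read 10.06, 9.77 and 9.76 in spheres and 6.65, 7.29 and 6.59 outside (3.02 ± 0.31, adjusted p = 1.93e-05). Among outside arrays replicate 2 was the highest for all 4 genes. The summed level of this list ran from 7180 to 9250 in spheres and from 1180 to 1770 outside.

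DNA replication genes followed, with 28 of 31 called higher and 0 lower (27 and 0 without in-sphere replicate 3), and a median difference of 1.72. The thymidine kinase gene Tk1 read 8.01, 7.89 and 7.58 in spheres and 4.94, 5.31 and 4.77 outside (2.82 ± 0.23, adjusted p = 4.36e-06). Mcm7 and Mcm5 encode subunits of the replicative helicase, and Mcm7 read 8.10, 8.01 and 8.01 in spheres and 5.31, 5.54 and 5.58 outside (2.56 ± 0.21, adjusted p = 4.03e-06) while Mcm5 differed by 2.54 ± 0.27, adjusted p = 2.15e-05 and by 0.30 on its other probe set. Pole, the catalytic subunit gene of a leading-strand polymerase, read 6.17, 6.18 and 5.27 in spheres and 3.29, 3.30 and 3.45 outside (2.53 ± 0.23, adjusted p = 7.72e-06), with in-sphere replicate 3 below the other in-sphere arrays. Regulators of the first phase of the cycle were also higher, with 10 of 16 called higher and 0 lower. The cyclin D genes Ccnd1 and Ccnd2 read 10.42, 10.38 and 10.48 in spheres and 7.38, 7.81 and 7.93 outside (2.72 ± 0.19, adjusted p = 1.38e-06) and 8.92, 9.16 and 9.13 in spheres and 6.08, 6.39 and 6.93 outside (2.60 ± 0.19, adjusted p = 2.03e-06). The inhibitor gene Cdkn2b, which blocks the kinases those cyclins activate, was higher as well (7.94, 8.14 and 8.08 in spheres and 5.41, 5.19 and 5.85 outside, 2.57 ± 0.24, adjusted p = 8.64e-06).

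Targets of the low-oxygen response were higher in spheres. Of 24 hypoxia response genes 21 were called higher and 1 lower, with a median difference of 1.68, and the count was the same without in-sphere replicate 3. The collagen lysyl hydroxylase gene Plod2 read 8.12, 8.29 and 8.11 in spheres and 4.93, 5.38 and 5.30 outside (2.97 ± 0.23, adjusted p = 2.38e-06). Adm, which encodes the vasodilator peptide adrenomedullin, read 7.53, 7.55 and 7.24 in spheres and 4.28, 4.97 and 4.43 outside (2.89 ± 0.35, adjusted p = 5.68e-05). Fam162a, a mitochondrial protein gene induced by HIF, read 11.43, 11.0 and 11.34 in spheres and 8.72, 9.03 and 8.45 outside (2.52 ± 0.22, adjusted p = 5.72e-06, with 0.10 on its other probe set). Selenbp1, a selenium-binding protein gene, read 8.93, 8.46 and 8.56 in spheres and 6.06, 6.19 and 5.52 outside (2.72 ± 0.23, adjusted p = 4.3e-06). The groups were well separated for each, by more than 2 on the log2 scale between the nearest arrays of Adm. The angiogenic factor Vegfa read 9.17, 9.08 and 9.31 in spheres and 8.28, 7.90 and 8.36 outside (1.01 ± 0.14, adjusted p = 0.00019). Narf was the 1 member called lower (6.39, 6.15 and 5.74 in spheres and 6.72, 6.86 and 6.87 outside, -0.73 ± 0.16, adjusted p = 0.00393). Summed over the list, the linear level ran from 12600 to 15700 in spheres and from 4110 to 5110 outside.

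Glycolytic enzyme genes were higher too, with 13 of 15 called higher and 0 lower, a median difference of 0.87, and 12 called without in-sphere replicate 3. Aldoc, an aldolase gene, read 8.03, 7.74 and 7.41 in spheres and 6.44, 5.62 and 5.21 outside (1.97 ± 0.33, adjusted p = 0.000588, or 1.27 for the mean of its probe sets). The phosphofructokinase genes Pfkp and Pfkl, which encode the committing enzyme of the pathway, read 9.78, 9.43 and 9.57 in spheres and 8.21, 8.04 and 7.92 outside (1.54 ± 0.15, adjusted p = 1.49e-05) and 7.10, 6.94 and 6.72 in spheres and 5.52, 5.68 and 5.19 outside (1.45 ± 0.26, adjusted p = 0.000845). Other probe sets of Pfkl gave differences from -0.49 to 0.62. The triose phosphate isomerase gene Tpi1 read 11.63, 11.55 and 11.72 in spheres and 10.43, 10.43 and 10.22 outside (1.28 ± 0.12, adjusted p = 8.59e-06). Oxidative phosphorylation genes did not share the direction. Of 24 tested 0 were called higher and 4 lower, with a median difference of 0.01. Over all genes tested 15.2% were called higher and 22.3% lower. Of the 4, Sdha and Sdhb, which encode subunits of succinate dehydrogenase, differed by -0.48 ± 0.11, adjusted p = 0.00503 and -0.38 ± 0.096, adjusted p = 0.00822, and other probe sets of Sdha gave -0.52 to 0.12. Without in-sphere replicate 3, or without outside replicate 2 or 3, the count called lower was 2.

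The core of the hypoxia response element, ACGTG, was searched on both strands of RefSeq promoter windows (assembly GRCm38.p6, 250 bases before to 50 after a start). Of the 20 hypoxia response genes with a window 15 held it (75.0%), as did 11 of 15 glycolysis genes (73.33%), against 28.45% of the 10067 tested genes with a window and 19.62% of all 32851 windows. Among genes called higher the share was 31.92% and among genes called lower 29.51%. ACGTG is contained in the longer TCACGTGA searched further on, and both lists hold textbook targets, so the shares are a description. The windows of Fam162a (chr16:36071512-36071811, minus strand) and of Car9 (chr4:43506776-43507075, plus strand) are shown to place the element beside the start, 5′ to 3′ on the gene's strand, with the match in capitals, in both cases on the opposite strand and so read as its reverse complement. Car9, a carbonic anhydrase gene used as a marker of low oxygen and chosen here after its values were seen, read 7.36, 6.83 and 6.56 in spheres and 5.17, 4.97 and 5.28 outside (1.77 ± 0.23, adjusted p = 9.11e-05).
Fam162a: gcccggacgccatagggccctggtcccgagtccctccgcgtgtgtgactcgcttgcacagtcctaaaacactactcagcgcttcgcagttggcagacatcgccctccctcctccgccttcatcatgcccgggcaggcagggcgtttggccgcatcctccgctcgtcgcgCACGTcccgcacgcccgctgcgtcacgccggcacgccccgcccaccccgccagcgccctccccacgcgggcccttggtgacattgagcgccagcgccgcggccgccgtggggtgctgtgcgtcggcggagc
Car9: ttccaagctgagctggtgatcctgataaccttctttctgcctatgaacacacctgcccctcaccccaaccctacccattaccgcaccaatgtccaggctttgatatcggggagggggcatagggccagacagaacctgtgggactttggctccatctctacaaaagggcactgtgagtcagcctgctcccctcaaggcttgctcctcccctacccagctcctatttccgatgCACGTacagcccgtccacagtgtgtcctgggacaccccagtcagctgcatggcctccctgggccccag

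**Figure D4:**
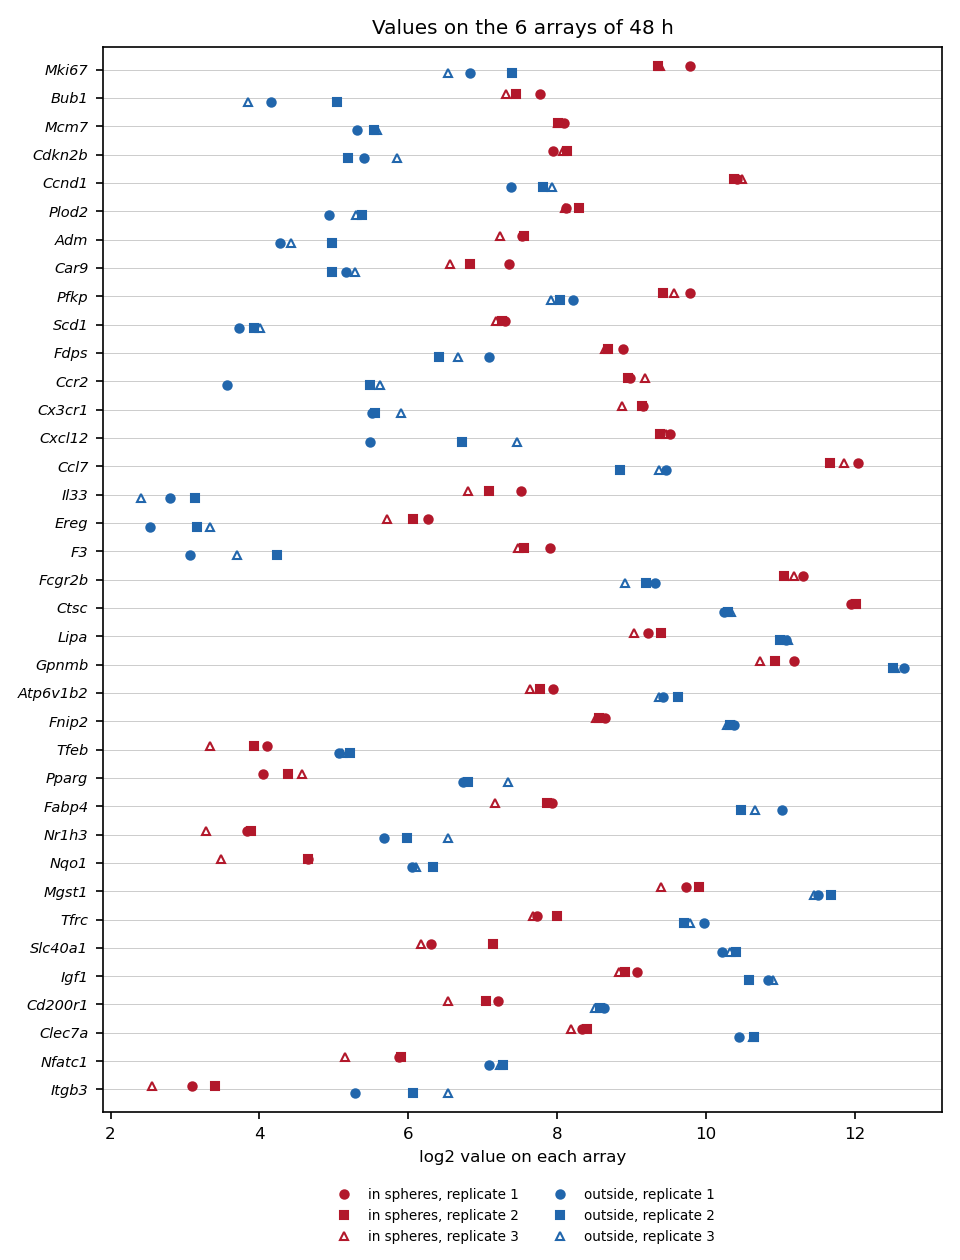
Log2 value of 37 genes on each of the 6 arrays of 48 h, red for in spheres and blue for outside, with circles, squares and open triangles for replicates 1, 2 and 3. Genes from Mki67 down to Ctsc are higher in spheres and genes from Lipa down to Itgb3 are lower; for Nqo1, Tfeb and Itgb3 the open red triangle of in-sphere replicate 3 lies below the other red points.

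Genes of the lysosome were lower in spheres. The vacuolar proton pump, which acidifies lysosomes and the osteoclast's resorption space, had all 14 tested subunit genes called lower, with a median difference of -0.89, and all 14 were called without in-sphere replicate 3. Atp6v0d2, a membrane subunit abundant in osteoclasts and some macrophages, read 6.61, 5.59 and 5.74 in spheres and 10.41, 9.87 and 10.34 outside (-4.23 ± 0.34, adjusted p = 3.47e-06). The catalytic-sector subunit genes Atp6v1b2 and Atp6v1a read 7.95, 7.77 and 7.64 in spheres and 9.43, 9.62 and 9.37 outside (-1.69 ± 0.13, adjusted p = 3.12e-06) and 9.86, 9.52 and 9.72 in spheres and 11.06, 10.78 and 10.91 outside (-1.22 ± 0.14, adjusted p = 3.62e-05). Atp6v0a1 read 5.06, 4.87 and 3.97 in spheres and 6.37, 6.08 and 6.29 outside (-1.61 ± 0.24, adjusted p = 0.000279), with replicate 3 the lowest in spheres and other probe sets from -0.46 to 0.08. The sum over these genes ran from 9460 to 9830 in spheres and from 16800 to 17700 outside.

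Of 24 lysosomal hydrolase and membrane protein genes 18 were called lower and 0 higher (15 without in-sphere replicate 3), with a median difference of -0.68. Lipa, which encodes the lysosomal acid lipase that frees cholesterol and fatty acids, read 9.22, 9.39 and 9.04 in spheres and 11.08, 10.99 and 11.10 outside (-1.84 ± 0.13, adjusted p = 1.84e-06). The glycoprotein gene Gpnmb, a MiT/TFE target, read 11.19, 10.93 and 10.73 in spheres and 12.66, 12.51 and 12.54 outside (-1.62 ± 0.17, adjusted p = 1.97e-05). Scarb2, a receptor that carries glucocerebrosidase to lysosomes, differed by -1.26 ± 0.17, adjusted p = 0.000135, and the cystine exporter gene Ctns by -1.40 ± 0.23, adjusted p = 0.000473. Every in-sphere array was below every outside array for these genes.

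The cathepsins, the proteases of this compartment, were lower for 8 of 13 genes and higher for 1 (7 and 1 without in-sphere replicate 3). The intracellular aspartic protease gene Ctse read 3.58, 3.82 and 3.82 in spheres and 6.26, 7.20 and 6.66 outside (-2.96 ± 0.26, adjusted p = 5.97e-06), and Ctsd, the main aspartic protease gene of lysosomes, 11.66, 11.58 and 11.54 in spheres and 12.51, 12.42 and 12.44 outside (-0.86 ± 0.1, adjusted p = 6.01e-05). The gene called higher was Ctsc, whose product activates granule serine proteases, at 11.95 to 12.02 in spheres and 10.24, 10.30 and 10.34 outside (1.70 ± 0.11, adjusted p = 1.24e-06), with differences of 2.37 and 2.56 on its other probe sets. Ctsk, the collagen-degrading protease gene of osteoclasts, read 5.60, 5.57 and 4.69 in spheres and 6.20, 5.92 and 6.40 outside. Its call (-0.89 ± 0.27, adjusted p = 0.0196) was lost without in-sphere replicate 3 (-0.59, adjusted p = 0.0751), outside replicate 1 (adjusted p = 0.0528) or outside replicate 3 (adjusted p = 0.0738).

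Regulators of the compartment were lower too. Of 20 genes of nutrient sensing and the MiT/TFE family 14 were called lower and 0 higher (12 without in-sphere replicate 3), with a median difference of -0.66. Fnip2 and Flcn encode a complex that controls the Rag GTPases, and they read 8.64, 8.57 and 8.53 in spheres and 10.38, 10.33 and 10.29 outside (-1.75 ± 0.1, adjusted p = 4.75e-07) and 6.11, 5.88 and 5.54 in spheres and 7.53, 7.53 and 7.54 outside (-1.69 ± 0.16, adjusted p = 8.71e-06). The Rag GTPase gene Rragd read 3.71, 4.01 and 3.01 in spheres and 7.66, 7.63 and 7.23 outside (-3.93 ± 0.25, adjusted p = 1.06e-06), while its other probe set gave -0.08. Ppargc1b, a coactivator gene of mitochondrial and osteoclast programs, differed by -1.46 ± 0.2, adjusted p = 0.000122. Autophagy genes were lower for 17 of 24 and higher for 0, with a median of -0.55, and 12 were called lower without in-sphere replicate 3. Atg5, which joins the conjugation system of the autophagosome, read 7.31, 7.38 and 6.99 in spheres and 8.18, 8.09 and 8.07 outside (-0.89 ± 0.15, adjusted p = 0.000511), and Gabarapl1, a member of the LC3 family, 8.12, 8.04 and 7.85 in spheres and 8.83, 9.04 and 8.69 outside (-0.85 ± 0.15, adjusted p = 0.000731).

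The CLEAR element TCACGTGA, which MiT/TFE factors bind, was searched in the same windows on both strands. It was present for 3 of 11 proton pump genes (27.27%), 2 of 9 cathepsin genes (22.22%), 1 of 21 lysosomal hydrolase and membrane protein genes (4.76%) and 0 of 18 nutrient sensing genes. The share was 2.08% of the tested genes with a window, 1.63% of those called higher, 3.59% of those called lower and 0.97% of all windows. The windows of Atp6v1a (chr16:44139210-44139509, minus strand) and Ctsd (chr7:142387778-142388077, minus strand) are shown with the element in capitals as examples of called genes that hold it.
Atp6v1a: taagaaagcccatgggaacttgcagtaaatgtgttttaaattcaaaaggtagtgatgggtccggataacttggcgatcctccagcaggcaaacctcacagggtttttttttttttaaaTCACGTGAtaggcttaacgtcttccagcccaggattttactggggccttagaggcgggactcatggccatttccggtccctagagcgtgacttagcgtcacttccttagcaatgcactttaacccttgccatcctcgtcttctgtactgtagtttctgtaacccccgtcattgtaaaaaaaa
Ctsd: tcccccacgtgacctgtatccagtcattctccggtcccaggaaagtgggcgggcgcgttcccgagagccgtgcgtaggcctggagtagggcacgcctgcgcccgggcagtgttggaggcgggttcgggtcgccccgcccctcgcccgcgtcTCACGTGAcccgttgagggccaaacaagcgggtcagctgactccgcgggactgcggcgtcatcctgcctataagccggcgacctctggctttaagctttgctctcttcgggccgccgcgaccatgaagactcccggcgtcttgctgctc

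Lipid handling genes were mostly lower. Of 25 genes of the LXR and PPAR receptors and lipid handling, 19 were called lower and 4 higher (18 and 4 without in-sphere replicate 3), with a median difference of -1.34. The receptor genes came first. Pparg, the lipid-sensing receptor of alveolar and fat-rich macrophages, read 4.05, 4.38 and 4.57 in spheres and 6.73, 6.81 and 7.34 outside (-2.62 ± 0.19, adjusted p = 2e-06), and Nr1h3, which encodes the oxysterol receptor LXR alpha, 3.83, 3.89 and 3.28 in spheres and 5.68, 5.99 and 6.54 outside (-2.40 ± 0.22, adjusted p = 8.64e-06). Among their targets the fatty acid carrier gene Fabp4 read 7.93, 7.86 and 7.16 in spheres and 11.02, 10.47 and 10.66 outside (-3.07 ± 0.24, adjusted p = 3.12e-06), and Cd5l, a secreted protein gene of the LXR program, 7.24, 8.09 and 6.48 in spheres and 10.59, 11.61 and 11.17 outside (-3.86 ± 0.42, adjusted p = 2.68e-05). In-sphere replicate 3 was the lowest array for Fabp4, Nr1h3 and Cd5l and the highest in-sphere array for Pparg, and no arrays of the groups overlapped.

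Of the 4 members called higher, Scd1, the stearoyl desaturase gene, read 7.30, 7.26 and 7.18 in spheres and 3.72, 3.93 and 4.01 outside (3.36 ± 0.27, adjusted p = 3.89e-06, with 0.96 on its other probe set). The fatty acid synthase gene Fasn read 7.32, 7.54 and 7.57 in spheres and 5.58, 5.51 and 5.39 outside (1.98 ± 0.14, adjusted p = 1.84e-06). Apoc2, which encodes the cofactor of lipoprotein lipase, differed by 1.30 ± 0.25, adjusted p = 0.00136, and the fourth was Ch25h, the 25-hydroxylase gene of cholesterol. Cholesterol synthesis genes had 9 of 19 called higher and 0 lower, and 12 higher without in-sphere replicate 3, with medians of 0.54 and 0.72. Fdps, the farnesyl pyrophosphate synthase gene, read 8.89, 8.69 and 8.65 in spheres and 7.08, 6.42 and 6.67 outside (2.02 ± 0.19, adjusted p = 1.14e-05). Idi1, which acts one step before it, read 7.70, 7.57 and 7.79 in spheres and 6.36, 5.93 and 5.98 outside (1.60 ± 0.14, adjusted p = 6.91e-06), and Fdft1, which acts on its product, differed by 1.31 ± 0.19, adjusted p = 0.000182. Sqle, which acts on the product of Fdft1, differed by 1.25 ± 0.22, adjusted p = 0.000778. The sterol response element TCACNCCAC was in the window of 1 of 15 genes of the list (6.67%), against 1.48% of tested genes and 1.24% of all windows.

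Antioxidant genes under NRF2 were lower. Of 23 tested 18 were called lower and 1 higher (17 and 1 without in-sphere replicate 3), with a median difference of -0.97. Nqo1, the quinone reductase gene, read 4.65, 4.65 and 3.48 in spheres and 6.05, 6.33 and 6.10 outside (-1.90 ± 0.35, adjusted p = 0.00113, or -1.51 without in-sphere replicate 3). Osgin1, an oxidative stress response gene, read 5.03, 5.43 and 5.10 in spheres and 7.26, 7.26 and 7.23 outside (-2.06 ± 0.17, adjusted p = 4.94e-06). The glutathione transferase genes Mgst1 and Gstm1 read 9.73, 9.91 and 9.40 in spheres and 11.51, 11.68 and 11.45 outside (-1.86 ± 0.15, adjusted p = 3.09e-06, or -0.94 for the mean of its probe sets) and 7.36, 7.36 and 6.98 in spheres and 9.24, 8.95 and 8.86 outside (-1.78 ± 0.23, adjusted p = 8.57e-05). Another glutathione transferase gene, Gsta4, was the 1 called higher (4.65, 4.12 and 3.81 in spheres and 2.88, 3.07 and 3.39 outside, 1.08 ± 0.29, adjusted p = 0.012), and without in-sphere replicate 1 its adjusted p was 0.0502, so that 0 were called higher. With the replicate block 2 genes were called higher. The list's summed level ran from 30800 to 32300 in spheres and from 46200 to 49700 outside.

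The core of the antioxidant response element, TGACNNNGC, was in the window of 7 of 19 NRF2 genes (36.84%), against 16.69% of tested genes, 16.19% of those called higher, 17.56% of those called lower and 12.39% of all windows. The window of Mgst1 (chr6:138140277-138140576, plus strand) is shown as an example of a called gene that holds it, with the match, here on the opposite strand, in capitals.
Mgst1: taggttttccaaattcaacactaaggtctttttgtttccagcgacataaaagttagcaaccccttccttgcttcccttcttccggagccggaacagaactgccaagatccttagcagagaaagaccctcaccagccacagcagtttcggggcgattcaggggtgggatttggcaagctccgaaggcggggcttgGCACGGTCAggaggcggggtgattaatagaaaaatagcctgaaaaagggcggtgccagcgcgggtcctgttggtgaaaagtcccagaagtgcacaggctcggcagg

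Iron genes were lower for 10 of 16 and higher for 1 (9 and 1 without in-sphere replicate 3). The iron exporter gene Slc40a1, which encodes ferroportin, read 6.30, 7.14 and 6.17 in spheres and 10.22, 10.41 and 10.32 outside (-3.78 ± 0.2, adjusted p = 3.02e-07). Tfrc, the transferrin receptor gene through which cells import iron, read 7.73, 8.0 and 7.68 in spheres and 9.97, 9.71 and 9.78 outside (-2.02 ± 0.13, adjusted p = 1.24e-06, or -1.17 for the mean of its probe sets), and Ncoa4, the receptor gene for autophagic release of ferritin iron, 8.05, 7.95 and 7.70 in spheres and 9.75, 10.04 and 9.77 outside (-1.95 ± 0.14, adjusted p = 1.67e-06). The importer gene Slc39a14 was the 1 called higher (6.94, 6.81 and 6.50 in spheres and 5.22, 5.43 and 5.45 outside, 1.38 ± 0.21, adjusted p = 0.000329), although its other probe sets gave 0.16 to 0.18. For these 4 genes the groups did not overlap.

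Osteoclast and bone genes were lower in spheres. Osteoclasts form by fusion of the same precursors that give macrophages, and 9 of 15 of their genes were called lower and 0 higher, with a median difference of -0.90. Without in-sphere replicate 3 the counts were 7 lower and 1 higher. Over all genes tested 22.3% were called lower and 15.2% higher. The list is not separate from those above, since Atp6v0d2 and Tcirg1 are also proton pump members. Ctsk is also in the cathepsin list, Mitf in the nutrient sensing list and Mmp9 in the granulocyte list. Nfatc1, the master transcription factor gene of osteoclasts, read 5.87, 5.90 and 5.15 in spheres and 7.08, 7.27 and 7.24 outside (-1.56 ± 0.2, adjusted p = 8.84e-05, other probe sets from -0.69 to -0.24). Itgb3, the integrin chain gene of the sealing zone, read 3.10, 3.41 and 2.56 in spheres and 5.29, 6.07 and 6.53 outside (-2.94 ± 0.32, adjusted p = 2.75e-05), while its other probe set gave -0.31. The chloride transporter gene Clcn7, which works with the proton pump, read 7.13, 7.05 and 6.81 in spheres and 8.76, 8.33 and 8.46 outside (-1.52 ± 0.16, adjusted p = 2.56e-05). Of 11 bone matrix and osteoblast genes, chiefly known from bone-forming cells, 8 were called lower and 0 higher, with a median of -1.23. Besides the mineralised matrix genes Ibsp and Dmp1, which had the lowest differences of all genes, Mgp, an inhibitor of calcification, read 8.52, 8.42 and 8.07 in spheres and 10.51, 10.51 and 10.97 outside (-2.33 ± 0.33, adjusted p = 0.000166) and the bone morphogen gene Bmp2 4.92, 5.71 and 4.77 in spheres and 7.43, 7.58 and 7.66 outside (-2.42 ± 0.32, adjusted p = 0.00011). The bone list's summed level ran from 1250 to 1310 in spheres and from 3290 to 3960 outside, with 3 of its 12 genes below the filter level on all in-sphere arrays and 1 on all outside arrays.

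Ibsp read 1.85, 2.41 and 1.95 in spheres and 8.43, 8.86 and 8.70 outside. All in-sphere arrays were below the filter level, so its difference is given as at least 5.89 against that level (adjusted p = 7.63e-08), and its other probe set gave -4.04. Dmp1 read 3.30, 2.99 and 2.66 in spheres and 9.05, 9.55 and 7.78 outside (-5.81 ± 0.64, adjusted p = 2.9e-05), with 2 of 3 in-sphere arrays above the filter level.

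Chemokine genes were higher. Of 20 CC and CXC chemokine genes 12 were called higher and 0 lower (11 without in-sphere replicate 3), with a median difference of 0.79, and with the replicate block 1 was called lower. Ccl7, a monocyte attractant, read 12.05, 11.67 and 11.86 in spheres and 9.46, 8.84 and 9.37 outside (2.64 ± 0.25, adjusted p = 1.09e-05). Cxcl12, a retention signal for progenitors and lymphocytes, read 9.52, 9.38 and 9.46 in spheres and 5.49, 6.72 and 7.46 outside (2.90 ± 0.41, adjusted p = 0.000171), although its other probe set gave -0.36. The interferon-induced chemokine gene Cxcl10 read 9.25, 9.28 and 9.0 in spheres and 6.15, 6.20 and 7.11 outside (2.69 ± 0.28, adjusted p = 2.15e-05). For all 3 genes the in-sphere arrays lay close together and above every outside array. The summed level of this list ran from 35600 to 40100 in spheres and from 16000 to 19200 outside.

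Chemokine receptor and trafficking genes went both ways. The monocyte receptor genes Ccr2 and Cx3cr1 were higher in spheres. Ccr2 read 8.98, 8.95 and 9.18 in spheres and 3.56, 5.49 and 5.62 outside (4.15 ± 0.46, adjusted p = 3.1e-05, other probe sets from 1.42 to 4.03), and Cx3cr1, the fractalkine receptor gene, 9.15, 9.14 and 8.87 in spheres and 5.52, 5.55 and 5.90 outside (3.40 ± 0.21, adjusted p = 9.95e-07, with 1.26 on its other probe set). Ccr1 read 10.05, 9.72 and 10.16 in spheres and 7.95, 8.73 and 8.55 outside (1.57 ± 0.19, adjusted p = 6.08e-05, or 0.97 for the mean of its probe sets). Lower were the neutrophil receptor gene Cxcr2 (5.58, 5.91 and 6.06 in spheres and 7.65, 8.43 and 8.39 outside, -2.31 ± 0.28, adjusted p = 5.57e-05), which is also a member of the granulocyte list, and the integrin genes Itgal (-1.15 ± 0.26, adjusted p = 0.00462) and Itga4 (-1.14 ± 0.23, adjusted p = 0.00228, other probe sets from -0.80 to 0.07). Of the 14 genes of the list 4 were called higher and 4 lower.

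Inflammatory activation genes were higher in part. Of 15 classical activation genes 9 were called higher and 1 lower (10 and 1 without in-sphere replicate 3), with a median difference of 1.07. Ptgs2, the inducible cyclooxygenase gene, read 10.96, 10.78 and 10.74 in spheres and 9.15, 9.71 and 9.63 outside (1.33 ± 0.15, adjusted p = 4.06e-05). Il1a, an interleukin-1 gene, read 8.54, 7.92 and 7.89 in spheres and 6.69, 6.12 and 6.56 outside (1.66 ± 0.27, adjusted p = 0.000465), and Il6 6.44, 6.02 and 4.85 in spheres and 3.37, 4.11 and 4.59 outside (1.75 ± 0.37, adjusted p = 0.00296), with in-sphere replicate 3 near the outside arrays and a difference of 2.21 without it. The formyl peptide receptor gene Fpr2, abundant in neutrophils, was lower (9.06, 9.35 and 9.04 in spheres and 10.14, 10.83 and 10.60 outside, -1.37 ± 0.18, adjusted p = 9.75e-05). The defining genes Tnf and Nos2 were not called. Tnf read 10.30, 10.16 and 10.11 in spheres and 10.32, 9.86 and 10.27 outside (adjusted p = 0.852), and Nos2, the inducible nitric oxide synthase gene, read 3.03, 2.83 and 2.46 in spheres and 2.79, 2.35 and 2.71 outside, at the filter level in both groups (adjusted p = 0.489).

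Alternative activation genes had 5 of 17 called higher and 3 lower. Fibronectin, encoded by Fn1, read 11.56, 11.06 and 11.24 in spheres and 9.41, 9.58 and 9.97 outside (1.63 ± 0.17, adjusted p = 1.85e-05), and the scavenger receptor gene Msr1 10.57, 10.12 and 10.17 in spheres and 9.38, 9.13 and 9.16 outside (1.06 ± 0.2, adjusted p = 0.0013). Tgm2, the transglutaminase gene, differed by 1.1 ± 0.25, adjusted p = 0.00389. The mannose receptor gene Mrc1 read 10.19, 9.93 and 9.99 in spheres and 9.20, 8.52 and 9.25 outside (1.05 ± 0.28, adjusted p = 0.0108), and without outside replicate 2 the difference was 0.81 with an adjusted p of 0.0512. Retnla and Chil3, which interleukin-4 induces, were lower (Retnla -1.09 ± 0.21, adjusted p = 0.00155, and Chil3, also in the granulocyte list, -1.64 ± 0.24, adjusted p = 0.000208), and Retnla was above the filter level on only 1 in-sphere array. The arginase gene Arg1, higher in spheres, was the most variable of these outside, at 8.56, 9.53 and 5.27, against 12.75, 12.44 and 12.65 in spheres (4.83 ± 0.93, adjusted p = 0.00151). Il10, which encodes an anti-inflammatory cytokine, read 8.11, 8.72 and 8.79 in spheres and 7.72, 8.14 and 8.27 outside, and its adjusted p was 0.121, or 0.0209 with the replicate block and 0.0367 without in-sphere replicate 1.

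Feedback genes of NF-kB and interferon-stimulated genes showed few calls. Of 17 feedback genes 2 were called higher and 1 lower, both shares below those over all genes. The deubiquitinase gene Tnfaip3 was higher (11.21, 11.09 and 11.23 in spheres and 10.28, 10.16 and 10.42 outside, 0.88 ± 0.11, adjusted p = 8.83e-05), as was the inhibitor gene Nfkbiz on the probe set used (0.48 ± 0.11, adjusted p = 0.00328), whose other probe sets gave -1.72 and 0.88. The mean of its probe sets gave -0.12 (adjusted p = 0.474). Tnfaip2 was lower (-1.12 ± 0.19, adjusted p = 0.000757). Without outside replicate 1, or with the replicate block, 2 were called lower. Of 23 interferon-stimulated genes 2 were called higher and 0 lower, with 0 higher when either in-sphere replicate 2 or outside replicate 2 was left out and 1 when outside replicate 1 was. Isg20, an exonuclease gene, read 7.49, 8.0 and 7.28 in spheres and 5.83, 5.89 and 6.83 outside, and Gbp3, a guanylate-binding protein gene, read 6.88, 7.22 and 6.87 in spheres and 5.68, 5.11 and 6.11 outside. Isg20 (1.40 ± 0.41, adjusted p = 0.0169) had adjusted p values of 0.0623, 0.0645 and 0.0617 when the same arrays (in-sphere 2, outside 1 and outside 2) were left out. Gbp3 (1.36 ± 0.4, adjusted p = 0.0177) had 0.056 and 0.0759 without in-sphere array 2 and outside array 2. Summed over the list, the linear level ran from 3110 to 8400 outside and from 5170 to 7950 in spheres, so it overlapped.

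Antigen presentation genes also went both ways. Of 18 genes of MHC class II presentation 7 were called higher and 5 lower (8 and 3 without in-sphere replicate 3). The classical chains that display peptide were lower, with H2-Aa at 6.69, 7.10 and 6.95 in spheres and 8.15, 8.10 and 8.81 outside (-1.44 ± 0.23, adjusted p = 0.000374) and H2-Eb1 at 5.56, 5.99 and 4.35 in spheres and 6.98, 6.75 and 7.65 outside (-1.83 ± 0.37, adjusted p = 0.00215). H2-DMa, which loads the peptide, was higher at 8.10, 8.02 and 7.83 in spheres and 5.88, 6.30 and 6.40 outside (1.79 ± 0.24, adjusted p = 0.000114, or 1.14 for the mean of its probe sets), as were the co-stimulatory receptors and ligands Cd80 (6.63, 6.23 and 5.86 in spheres and 5.21, 4.96 and 4.98 outside, 1.19 ± 0.27, adjusted p = 0.00454, or 0.47 for the mean of its probe sets), Cd86 (7.02, 6.63 and 6.69 in spheres and 5.85, 5.44 and 5.65 outside, 1.13 ± 0.21, adjusted p = 0.00118) and Cd40 (5.04, 5.36 and 4.83 in spheres and 3.70, 3.74 and 4.30 outside, 1.16 ± 0.27, adjusted p = 0.00519). Marchf1, a ubiquitin ligase gene that removes class II molecules and Cd86 from the surface, was lower (-1.27 ± 0.2, adjusted p = 0.00038, or -0.69 for the mean of its probe sets). When outside replicate 1 was left out, 3 genes were called lower.

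Receptor genes for antibody and microbes were lower or higher by member. Of 22 Fc and Toll-like receptor genes 4 were called higher and 8 lower (3 and 6 without in-sphere replicate 3). The inhibitory IgG receptor gene Fcgr2b read 11.31, 11.05 and 11.18 in spheres and 9.31, 9.20 and 8.91 outside (2.04 ± 0.13, adjusted p = 1.24e-06), and Tlr2, the receptor gene for bacterial lipopeptides, 10.12, 9.87 and 9.97 in spheres and 9.28, 9.11 and 9.16 outside (0.81 ± 0.13, adjusted p = 0.000473). Its partner gene Tlr6 was lower (4.89, 4.77 and 4.34 in spheres and 5.70, 5.68 and 5.53 outside, -0.97 ± 0.17, adjusted p = 0.00094), as were Tlr8, a receptor gene of the endosome (-1.02 ± 0.18, adjusted p = 0.000747), the adaptor gene Myd88 (7.19, 7.33 and 7.08 in spheres and 7.99, 7.91 and 8.16 outside, -0.82 ± 0.12, adjusted p = 0.000297) and Ly96, which encodes the lipopolysaccharide-binding partner of Tlr4 (7.0, 7.05 and 6.96 in spheres and 7.91, 7.85 and 8.12 outside, -0.96 ± 0.13, adjusted p = 0.00017). Each of these called genes had groups that did not overlap.

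Of 21 C-type lectin and scavenger receptor genes 4 were higher and 7 lower. The beta-glucan receptor gene Clec7a read 8.33, 8.40 and 8.19 in spheres and 10.44, 10.65 and 10.63 outside (-2.27 ± 0.12, adjusted p = 3.02e-07). Cd36, a receptor for oxidised lipid, read 10.51, 10.30 and 10.47 in spheres and 11.75, 11.76 and 11.74 outside (-1.33 ± 0.13, adjusted p = 1.32e-05), and Clec5a, a myeloid activating receptor gene, was higher (9.01, 8.19 and 8.48 in spheres and 6.89, 7.78 and 7.15 outside, 1.29 ± 0.3, adjusted p = 0.00547). Of 18 genes for engulfment of apoptotic cells 3 were called higher and 9 lower (2 and 8 without in-sphere replicate 3). The receptor kinase gene Mertk read 7.93, 7.88 and 7.68 in spheres and 9.21, 8.95 and 9.09 outside (-1.25 ± 0.15, adjusted p = 6.3e-05), and its ligand gene Gas6 6.73, 6.72 and 6.54 in spheres and 8.51, 8.19 and 8.64 outside (-1.78 ± 0.26, adjusted p = 0.000225, with -0.17 on its other probe set). Havcr2, which encodes TIM-3, was higher (7.24, 7.01 and 6.75 in spheres and 5.81, 5.54 and 5.34 outside, 1.43 ± 0.22, adjusted p = 0.000275). It was the sole gene called higher when in-sphere replicate 1 or 2, or outside replicate 1 or 2, was left out.

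Of 17 complement genes 2 were called higher and 4 lower (1 and 3 without in-sphere replicate 3), near the shares over all genes tested, 15.2% higher and 22.3% lower. The protease gene C1s1 read 6.28, 5.44 and 5.47 in spheres and 3.59, 3.60 and 3.13 outside (2.29 ± 0.25, adjusted p = 2.9e-05), and Cd55, a membrane inhibitor of complement, 3.57, 4.28 and 5.05 in spheres and 5.79, 6.32 and 5.94 outside (-1.71 ± 0.31, adjusted p = 0.00107). The count called higher was also 1 without in-sphere replicate 2, and the count called lower was 2 when in-sphere replicate 1 or 2, or outside replicate 2 or 3, was left out. Immune checkpoint genes were split, 8 of 20 higher and 8 lower (7 and 7 without in-sphere replicate 3). Tnfsf9, a co-stimulatory ligand gene, read 9.80, 9.40 and 9.67 in spheres and 7.21, 6.35 and 6.77 outside (2.85 ± 0.3, adjusted p = 2.33e-05), and Nt5e, the ectonucleotidase gene CD73, differed by 1.19 ± 0.25, adjusted p = 0.00256, with -0.17 and 0.44 on its other probe sets. Entpd1, the ectonucleotidase gene that acts before it, was lower (-1.05 ± 0.25, adjusted p = 0.00541). The inhibitory receptor genes Cd200r1 (7.21, 7.04 and 6.53 in spheres and 8.63, 8.58 and 8.51 outside, -1.65 ± 0.18, adjusted p = 2.79e-05) and Sirpa (9.87, 9.79 and 9.71 in spheres and 10.83, 10.76 and 10.81 outside, -1.01 ± 0.16, adjusted p = 0.000324) were lower, and so was the PD-1 ligand gene Cd274 (7.26, 7.63 and 7.12 in spheres and 8.03, 8.02 and 7.85 outside, -0.63 ± 0.16, adjusted p = 0.00983).

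Matrix genes were higher. Of 26 collagen and matrix genes 19 were called higher and 1 lower, with a median difference of 1.47. Versican, encoded by Vcan, read 7.85, 7.68 and 7.67 in spheres and 3.32, 4.72 and 5.42 outside (3.25 ± 0.42, adjusted p = 9.03e-05, other probe sets from -0.10 to 2.56), and the laminin chain gene Lamb1 8.10, 8.28 and 8.01 in spheres and 4.78, 5.27 and 5.60 outside (2.91 ± 0.25, adjusted p = 4.95e-06). The summed level ran from 12900 to 13700 in spheres and from 3440 to 5540 outside, and 7 of the 26 also stand in the fibroblast list. Matrix proteases and their inhibitors divided, with 8 of 19 higher and 5 lower (7 and 4 without in-sphere replicate 3). The collagenase gene Mmp13 read 10.82, 10.71 and 10.52 in spheres and 8.49, 9.19 and 9.17 outside (1.73 ± 0.28, adjusted p = 0.000485). Serpinb2, an inhibitor of plasminogen activators, read 7.86, 6.73 and 5.96 in spheres and 3.71, 5.02 and 3.44 outside (2.79 ± 0.63, adjusted p = 0.00419), with the in-sphere arrays spread. The neutrophil proteases Mmp8 (9.99, 9.88 and 9.75 in spheres and 11.14, 11.68 and 11.40 outside, -1.53 ± 0.16, adjusted p = 1.83e-05) and Mmp9 (8.48, 8.24 and 8.59 in spheres and 9.45, 10.41 and 9.89 outside, -1.48 ± 0.25, adjusted p = 0.000585), both also in the granulocyte list, were lower, and so was the inhibitor gene Timp2 (-0.92 ± 0.14, adjusted p = 0.000304), whereas Timp3 was higher (1.90 ± 0.36, adjusted p = 0.00136, other probe sets from 0.30 to 1.20).

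Targets and partners of YAP, a coactivator that responds to stiffness and cell contact, were higher for 11 of 19 genes and lower for 2 (10 and 2 without in-sphere replicate 3). Yap1 itself read 6.41, 6.63 and 6.41 in spheres and 3.57, 4.04 and 4.32 outside (2.51 ± 0.23, adjusted p = 8.24e-06, with 0.47 on its other probe set). The YAP target gene Ankrd1 read 7.48, 7.85 and 8.19 in spheres and 2.82, 2.73 and 2.16 outside (5.27 ± 0.27, adjusted p = 2.11e-07), the matricellular gene Ccn1 8.86, 8.62 and 8.72 in spheres and 5.67, 6.38 and 6.94 outside (2.41 ± 0.31, adjusted p = 8.78e-05) and the tissue factor gene F3 7.91, 7.55 and 7.47 in spheres and 3.07, 4.24 and 3.70 outside (3.97 ± 0.28, adjusted p = 1.52e-06). The related gene Ccn2 went the other way (5.95, 5.96 and 6.09 in spheres and 6.32, 7.56 and 7.74 outside, -1.21 ± 0.33, adjusted p = 0.0129), with adjusted p values of 0.0554 and 0.0593 without outside replicates 2 and 3, each of which leaves 1 gene called lower. The sum over these genes ran from 2000 to 2280 in spheres and from 850 to 1100 outside. The part of stromal cells in the matrix and YAP results was not tested.

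Growth factor genes had 8 of 20 called higher and 4 lower (7 and 3 without in-sphere replicate 3). The epidermal growth factor receptor ligands Ereg and Hbegf read 6.26, 6.07 and 5.72 in spheres and 2.53, 3.16 and 3.34 outside (3.0 ± 0.24, adjusted p = 3.47e-06) and 6.97, 6.66 and 6.56 in spheres and 4.95, 5.65 and 5.39 outside (1.41 ± 0.19, adjusted p = 0.000124). Lif, a cytokine of the interleukin-6 family, read 6.99, 6.19 and 6.47 in spheres and 4.39, 4.72 and 4.85 outside (1.89 ± 0.21, adjusted p = 2.8e-05, or 0.74 for the mean of its probe sets), and Tgfb3 5.77, 6.03 and 5.89 in spheres and 3.45, 4.24 and 4.61 outside (1.80 ± 0.25, adjusted p = 0.000181). Lower were the insulin-like growth factor gene Igf1 (9.07, 8.91 and 8.83 in spheres and 10.83, 10.58 and 10.90 outside, -1.83 ± 0.18, adjusted p = 1.26e-05) and the hepatocyte growth factor gene Hgf (-0.82 ± 0.19, adjusted p = 0.00571). Tgfb1 read 5.46, 5.19 and 4.56 in spheres and 6.09, 6.07 and 6.09 outside, and its call (-1.01 ± 0.29, adjusted p = 0.0171) was lost without in-sphere replicate 3 (-0.76, adjusted p = 0.0717).

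Stress response genes included members that were higher and members that were lower. Of 31 genes of the unfolded protein and amino acid response 14 were called higher and 4 lower, with a median difference of 0.08. Cth, a gene of cysteine synthesis, read 5.63, 5.28 and 5.28 in spheres and was below the filter level on all outside arrays (adjusted p = 5.12e-06, a difference of at least 2.62 against that level). Psat1, of serine synthesis, read 7.14, 7.21 and 7.15 in spheres and 4.61, 5.03 and 4.77 outside (2.37 ± 0.21, adjusted p = 7.82e-06), and the large neutral amino acid transporter gene Slc7a5 5.90, 6.05 and 5.49 in spheres and 3.99, 3.80 and 4.08 outside (1.86 ± 0.18, adjusted p = 1.18e-05). Lower were Ddit3, which encodes the pro-apoptotic factor CHOP (7.89, 7.75 and 7.43 in spheres and 8.21, 8.38 and 8.68 outside, -0.73 ± 0.19, adjusted p = 0.0082), Chac1, a glutathione-degrading enzyme gene (-1.0 ± 0.13, adjusted p = 0.000118), and Atf5 (-0.99 ± 0.23, adjusted p = 0.00486). The cystine importer gene Slc7a11 read 4.26, 4.53 and 2.78 in spheres and 4.99, 5.87 and 5.03 outside, a difference of -1.44, or -0.90 without in-sphere replicate 3, and its adjusted p was 0.0572 without outside replicate 2. Aminoacyl-tRNA synthetase genes were higher for 6 of 17 and lower for 0 (7 and 0 without in-sphere replicate 3), such as Kars (8.57, 8.41 and 8.45 in spheres and 7.52, 7.58 and 7.73 outside, 0.86 ± 0.11, adjusted p = 7.84e-05) and Vars (1.16 ± 0.22, adjusted p = 0.00133).

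Immediate-early genes had 9 of 24 called higher and 3 lower (6 and 2 without in-sphere replicate 3). Socs3, a feedback inhibitor of cytokine signalling, read 8.89, 8.78 and 9.06 in spheres and 7.11, 7.03 and 7.14 outside (1.82 ± 0.15, adjusted p = 3.89e-06), and the transcription factor gene Klf4 9.82, 9.33 and 9.66 in spheres and 8.02, 7.95 and 8.18 outside (1.55 ± 0.17, adjusted p = 2.31e-05). Myc differed by 0.88 ± 0.22, adjusted p = 0.00725. The count called lower was 1 when in-sphere replicate 1 was left out and 0 when outside replicate 3 was. Heat shock genes had 5 of 15 called higher and 2 lower (5 and 1 without in-sphere replicate 3), led by the inducible chaperone gene Hspa1b (9.30, 9.19 and 9.03 in spheres and 6.87, 7.11 and 7.03 outside, 2.17 ± 0.15, adjusted p = 1.38e-06). Ahsa1, a cochaperone gene of HSP90, was lower (-0.70 ± 0.16, adjusted p = 0.00395), and the other was the cochaperone gene Bag3 (-0.61 ± 0.21, adjusted p = 0.0372), whose call was lost without any 1 array other than in-sphere replicate 1 (adjusted p from 0.0553 to 0.144). Of 22 p53 target and apoptosis genes 2 were called higher and 7 lower (2 and 6 without in-sphere replicate 3). The survival gene Bcl2 read 6.34, 6.26 and 5.79 in spheres and 4.06, 4.22 and 3.96 outside (2.05 ± 0.19, adjusted p = 9.5e-06, with 0.61 on its other probe set). The p53 targets Trp53inp1 (6.31, 6.56 and 6.23 in spheres and 8.29, 8.94 and 8.55 outside, -2.22 ± 0.23, adjusted p = 1.89e-05, with -0.34 on its other probe set), Sesn1 (7.45, 7.25 and 6.88 in spheres and 8.34, 8.71 and 8.50 outside, -1.32 ± 0.16, adjusted p = 5.29e-05), Phlda3 (-1.42 ± 0.26, adjusted p = 0.0011) and Zmat3 (-1.14 ± 0.21, adjusted p = 0.00133) were lower. The other gene called higher was Gadd45a, also a p53 target. It lost its call without in-sphere replicate 1 (0.35, adjusted p = 0.0739), outside replicate 1 (0.44, adjusted p = 0.061) or outside replicate 3 (0.44, adjusted p = 0.0627). In those 3 fits Bcl2 alone was called higher. Of the 22 genes 13 were not called, and the median difference was -0.15.

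Ribosomal protein genes were slightly higher in part. Of 24 cytosolic ribosomal protein genes 8 were called higher and 0 lower, with a median of 0.23 and no member below 0. The groups did not overlap for 22 of the 24, against 51.6% of all genes tested. With 1 array left out the count called higher was 5 without in-sphere replicate 3 and 4 without each of the other 5 arrays. Rps18 read 12.51, 12.41 and 12.46 in spheres and 11.97, 12.02 and 12.07 outside (0.44 ± 0.1, adjusted p = 0.00421) and Rpl3 12.16, 12.15 and 12.10 in spheres and 11.73, 11.66 and 11.78 outside (0.41 ± 0.097, adjusted p = 0.00536). Of 29 mitochondrial ribosomal protein genes 7 were higher and 1 lower (8 and 1 without in-sphere replicate 3), with 3 higher without outside replicate 2. Mrpl13 read 8.87, 8.75 and 8.75 in spheres and 8.30, 8.13 and 8.19 outside (0.58 ± 0.13, adjusted p = 0.00396). Genes of ribosome biogenesis had 9 of 27 higher and 0 lower. Dkc1, a pseudouridine synthase gene of small nucleolar particles, read 7.32, 7.67 and 7.54 in spheres and 5.92, 5.97 and 5.79 outside (1.61 ± 0.14, adjusted p = 6.32e-06), its partner gene Gar1 7.46, 7.77 and 7.57 in spheres and 6.16, 6.28 and 6.31 outside (1.35 ± 0.15, adjusted p = 3.55e-05) and the methylation particle gene Nop58 8.90, 9.02 and 9.0 in spheres and 7.68, 7.68 and 7.78 outside (1.26 ± 0.14, adjusted p = 3.69e-05). Proteasome subunit genes had 6 of 31 higher and 2 lower (6 and 1 without in-sphere replicate 3), against 15.2% higher and 22.3% lower over all genes tested. Psma5 was higher (9.27, 9.37 and 9.30 in spheres and 8.71, 8.69 and 8.62 outside, 0.64 ± 0.11, adjusted p = 0.000884) and Psmb5 lower (-0.41 ± 0.098, adjusted p = 0.00596). The other gene called lower, Psmb6 (-0.38 ± 0.13, adjusted p = 0.0403), lost its call without any 1 array other than outside replicate 2 (adjusted p from 0.0517 to 0.163).

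Among the largest differences were genes outside these lists. Il33, an alarmin gene, read 7.52, 7.08 and 6.81 in spheres and 2.80, 3.13 and 2.41 outside (4.35 ± 0.36, adjusted p = 4.03e-06). The neurotrophic surface protein gene Nrn1 read 8.29, 8.09 and 8.15 in spheres and 3.51, 3.88 and 4.34 outside (4.26 ± 0.28, adjusted p = 1.13e-06), and Tcim, a regulator of Wnt signalling, 9.05, 9.20 and 9.47 in spheres and 4.0, 5.18 and 4.95 outside (4.53 ± 0.34, adjusted p = 2.12e-06). Dkk2, which encodes a secreted modulator of Wnt receptors, was below the filter level on all outside arrays and read 7.41, 7.35 and 7.31 in spheres, at least 4.58 above that level (adjusted p = 7.63e-08). On the lower side the homeobox gene Irx3 read 3.05, 2.85 and 2.41 in spheres and 5.99, 6.79 and 7.26 outside (-3.91 ± 0.27, adjusted p = 1.46e-06) and Ipcef1 3.42, 4.24 and 2.85 in spheres and 6.67, 7.88 and 6.92 outside (-3.66 ± 0.39, adjusted p = 2.52e-05, with -0.81 on its other probe set). For all 6 genes the groups did not overlap.

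Of the 4685 genes called at 48 h, 2798 (59.7%) were called in the same direction at 24 h and 3 in the other direction. The change between the times was tested as the 48 h difference minus the 24 h difference, over all 12 arrays. No gene passed without the replicate block (0 called, 1534 genes at an unadjusted p under 0.05), whereas 65 genes, or 0.52%, passed with the replicate number as a block, 45 with a positive change and 20 with a negative one. Each time has its own outside arrays. The mitosis list showed the widest change of the lists. Its median difference was 0.96 at 24 h and 2.53 at 48 h, all 28 members had a positive change, and 14 of them passed with the block. From 24 h to 48 h the median shift of its members' levels was 0.42 in spheres and -1.02 outside. For Mki67 the difference was 0.59 at 24 h, and its change of 2.0 ± 0.32 had an adjusted p of 0.0375 with the block and 0.107 without it. For DNA replication genes the medians were 1.31 and 1.72, and 1 member passed.

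The other lists are given by their medians. The hypoxia medians were 1.82 at 24 h and 1.68 at 48 h and the glycolysis medians 0.88 and 0.87, with 0 changes passing in either list with the block. The proton pump medians were -0.54 and -0.89, and all 14 members had a negative change, of which 0 passed with the block. The bone matrix medians were -0.60 and -1.23, with 3 changes passing, and the level of this list outside spheres was higher at 48 h than at 24 h by a median of 0.84. For Ccr2 the difference was 1.57 at 24 h and 4.15 at 48 h, a change of 2.57 ± 0.65 (adjusted p = 0.0421 with the block and 0.171 without it). For Cxcl10 it was 0.57 and 2.69, a change of 2.12 ± 0.4 (adjusted p = 0.0375 with the block and 0.107 without it). The part of batch differences between the times was not tested.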

How the data were processed

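RNA of 3 in-sphere and 3 outside samples at 48 h, and of 6 samples at 24 h, was measured on Affymetrix 3′ expression arrays. Per the submitters' processing notes the deposited values are log2 RMA signals from Expression Console 1.1 of Affymetrix; the log base was taken from the range of the values, and the scanner files were not used here. RMA normalises between arrays and a mean over all probe sets that still differs, as on in-sphere replicate 3, remains in the values. Of 45141 probe sets 28898 carried 1 gene symbol in the platform annotation, 551 several and 15692 none. Each of 17097 genes was represented by its probe set of highest mean on the 12 arrays, and the 12488 genes above the 40th percentile of all values (2.77, the filter level) on at least 3 arrays were tested.

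Group means of the 4 groups were fitted with limma 3.58.1 in R 4.3.3 (lmFit, eBayes), with Benjamini-Hochberg adjustment. The number of arrays limits the precision. A difference at 48 h against a group below the filter level on all its arrays is given as a bound against that level.

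The reported fit has no replicate block, and a fit with it is an alternative, given beside the results whose call it changes. The replicate numbers mark pairs of in-sphere and outside arrays, since the series' design states that each replicate was an independent experiment with outside cells from the same cultures. The reported SE and adjusted p therefore do not use the pairing. The block was the replicate number alone, so it also joined same-numbered arrays of 24 h and 48 h. No fit with pairs within each time was run. The sample titles do not say whether those came from the same experiment. Deviations from the group means of the same-numbered in-sphere and outside arrays at 48 h correlated at 0.117, 0.0417 and 0.112. Those of outside arrays at 24 h and 48 h correlated at 0.471, 0.473 and 0.419, and those of in-sphere arrays at 0.116, 0.14 and 0.0247.

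The 51 gene lists hold 950 genes on the array, 899 of them tested, and were written from general knowledge. The comparison, its lists and its rules were chosen with earlier results of these data known. Named genes were the 12 largest called differences per direction without overlap, passing over uncharacterised gene models, up to 4 called members of each list per direction (or 2 where none was called), the 8 largest changes between times per direction, and Itgam, Csf1r, Adgre1, Cd68, Mrc1, Arg1, Nos2, Tnf, Il10, Cd274, Vegfa, Mki67, Ptprc and Cdkn2a. The changes between times were taken from genes that passed with the replicate block, a choice made after results were seen. Th, Dbh, Chga and Car9 were added as values after they were seen. Summed levels are sums of a list's values after undoing the log2. Alternatives are given in the closing section. Promoter windows came from RefSeq (GRCm38.p6) and were matched by gene ID or symbol.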

Additional observations from a re-analysis of the deposited data

Results flagged for a closer look

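For the named genes below, the change of the difference between in-sphere and outside macrophages from 24 h to 48 h passed with the replicate block. None of them passed in the reported fit. Each is given as the change, the 48 h difference minus the 24 h difference on the log2 scale, ± the SE of the fit without the block. In limma's fit with the block 21 named genes passed at an adjusted p under 0.05, and 0 passed without it. Up to 8 genes per direction were named because they passed with the block, so the count of 21 is no support for a change. No explanation was weighed.

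Genes of the dividing cell had a positive change. The change was 2.21 ± 0.44 (SE) for Ube2c, 2.0 ± 0.46 for Ccnb2, 1.70 ± 0.34 for the cyclin gene Ccna2 and 2.0 ± 0.32 for Mki67. It was 2.07 ± 0.48 for Rrm2, a subunit gene of ribonucleotide reductase, 2.0 ± 0.41 for Birc5, which encodes survivin, and 2.04 ± 0.4 for the cohesin acetyltransferase gene Esco2, which was below the filter level on all outside arrays at 48 h, so that its change is a fitted value and no measured size. Outside arrays read lower at 48 h than at 24 h for Mki67 (-1.56) and in-sphere arrays higher (0.44).

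Inflammatory and monocyte genes with a positive change were Ccr2 (2.57 ± 0.65), Cxcl10 (2.12 ± 0.4) and Il10 (1.22 ± 0.34). Prtn3, the granule protease gene, changed by 1.43 ± 0.45. Nr4a2, an orphan nuclear receptor gene of the immediate-early class, had a change of 1.86 ± 0.29, with a difference of -0.47 at 24 h and 1.39 at 48 h.

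The bone genes Ibsp (-2.11 ± 0.4), Dmp1 (-3.11 ± 0.91) and Phex, an endopeptidase gene of osteocytes (-2.70 ± 0.55), had a negative change. Ibsp was below the filter level on all in-sphere arrays of both times and Phex on all outside arrays at 24 h, so their changes too are fitted values and no measured sizes. So did the cathepsin gene Ctsf (-0.99 ± 0.29), the myosin gene Myo10 (-1.44 ± 0.33), the neuropeptide gene Npy (-1.43 ± 0.53), the creatine transporter gene Slc6a8 (-1.36 ± 0.38) and the lysosomal membrane protein gene Gpr137b (-1.25 ± 0.32). Mtx3, a metaxin gene of the outer mitochondrial membrane, had a change of -1.31 ± 0.26, from 0.44 at 24 h to -0.87 at 48 h. Of the 12488 genes tested, 60 had in-sphere and outside groups that did not overlap at either time and changed order between the times. Nr4a2 and Mtx3 were the 2 named genes among them. How many genes would do so by chance was not worked out, so this count is no support for a reversal. Groups of 3 arrays were not tested for single outlying arrays.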

How the results depend on the processing

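The number of genes called at 48 h was 4685 and ran from 3811 to 5958 over 16 alternatives, of which leaving out 1 array gave 3811 to 4390. The alternatives were other normalisations, filters, probe set rules, array weights, trend and robust eBayes, the 6 arrays of 48 h alone, the replicate block, each array left out, and quantile normalisation with in-sphere array 3 left out, which was chosen after seeing the data. Of 264 named genes called, 260 were tested under all of them and 224 of these were called in the same direction throughout, and 1518 of 1632 list counts stayed within 1.5 times. Nfkbiz reversed with the mean of all probe sets (-0.12, adjusted p = 0.474), where its 3 probe sets disagree. The count of genes whose difference changed from 24 h to 48 h was 0, but 65 with the replicate block, 130 with array weights, 7 with quantile normalisation, 7 with trend and robust eBayes and 1 with the mean of all probe sets. Leaving out 1 array gave 0 to 2, the 2 without in-sphere replicate 2. The cause was not tested. With the block 4813 genes were called at 48 h. Among the named genes, the block ended the call of Lrp1 (adjusted p = 0.0661), gave calls for Adgre1 (0.0453), Il10 (0.0209), Phex (0.0252) and Npy (0.00188), and changed no other call of a gene named by the rule. With 3 arrays a group, signal near background limits the genes below the filter level, whose differences are bounds.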
